A study of Homo sapiens with 12 samples.

Results

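The E2F transcription factors and their DP partners were examined as a family of 10 genes, E2F1 to E2F8, TFDP1 and TFDP2, chosen by name from the 54628 genes listed in an RNA-seq count table. The cells were HUDEP-2, an erythroid precursor line immortalised with doxycycline-controlled papillomavirus E6 and E7 proteins and grown with doxycycline and stem cell factor (SCF), the ligand of the receptor Kit. There were 4 groups of 3 libraries, in which cells with a control guide (sgControl) or with a guide that directs CRISPR interference by dCas9-KRAB to an element near the EGR1 gene (sgEGR1) received PBS or SCF. All cells were first deprived of growth factors for 5 h, and SCF was then given at 50 ng/mL for 1 h. All 4 groups were derivatives of a single line, and the guide-bearing cells were made by lentiviral infection and a sort for GFP, with no cloning step described.

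E2F proteins bind DNA at the promoters of genes for DNA synthesis and cell cycle entry, most of them as a heterodimer with a DP protein. In resting cells pocket proteins of the RB family hold E2F-DP dimers in a repressive state, and phosphorylation of the pocket proteins by cyclin-dependent kinases releases the activating members. The papillomavirus E7 protein also binds pocket proteins, so the HUDEP-2 line differs from unmodified precursors in this pathway, and its E2F state may not be that of primary cells. Erythroid precursors divide several times while they mature, and E2F2 and E2F4 in particular are known for roles in this lineage.

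Totals ranged from 23.5 to 32.04 megacounts per library, and 15492 genes, including all 10 members, passed the filter on low counts. The erythroid markers GATA1, KLF1, TAL1, KIT, EPOR, TFRC, HBB, HBG1 and ALAS2 summed to between 19649 and 22627 CPM (counts per megacount of library total, scaled by TMM) in each library. Most of this sum was HBB, at 13398 to 16032 CPM, while HBG1 was uneven, from 0 to 166 CPM. Megakaryocyte markers summed to between 12.1 and 35.6 CPM with 2 of 4 at 0 throughout, and granulocyte, monocyte and lymphocyte markers each summed to 0.594 CPM or less. EGR1 was at 5.99 to 10.9 CPM in sgControl PBS, 171 to 239 CPM in sgControl SCF and 0.977 to 2.04 CPM in sgEGR1 PBS. In sgEGR1 SCF it was at 40.4 and 57.4 CPM in replicates 1 and 2 but at 204 CPM in the library labelled sgEGR1 SCF replicate 3, which is within the sgControl SCF range, so results that rest on this library are also given without it. Replicate 1 of all 4 groups stood apart from replicates 2 and 3 without any batch named in the labels, and values that take this into account are given beside the pooled ones.

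Promoter sequences are shown first for the 3 activators and for the 2 other members with a promoter entry whose transcripts rose after SCF, so that the motifs can be read beside the responses. Each is the stretch upstream of the RefSeq transcription start (GRCh38.p14), written on the strand of the gene and cut where the annotated gene begins. Capitals mark a strict E2F site (TTTCCCGC, TTTGGCGC, TTTCGCGC or TTTGCCGC) or an EGR motif (GCGTGGG) on either strand. E2F1 at chr20:33686386-33686635 (minus strand), E2F2 at chr1:23531234-23531483 (minus strand), E2F3 (first of its starts) at chr6:20401629-20401878 (plus strand), E2F6 at chr2:11466178-11466411 (minus strand) and E2F7 at chr12:77065570-77065819 (minus strand) read as follows.
E2F1: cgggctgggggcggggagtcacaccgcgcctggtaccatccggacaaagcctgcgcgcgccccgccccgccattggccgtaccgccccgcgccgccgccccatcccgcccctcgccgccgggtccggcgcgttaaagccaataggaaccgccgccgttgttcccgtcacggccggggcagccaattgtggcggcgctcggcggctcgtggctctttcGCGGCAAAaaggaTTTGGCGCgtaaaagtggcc
E2F2: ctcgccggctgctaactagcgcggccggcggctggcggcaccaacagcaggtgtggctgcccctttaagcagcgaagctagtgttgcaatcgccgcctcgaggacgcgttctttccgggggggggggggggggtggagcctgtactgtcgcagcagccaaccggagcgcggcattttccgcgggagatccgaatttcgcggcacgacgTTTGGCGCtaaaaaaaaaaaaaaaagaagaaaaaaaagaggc
E2F3: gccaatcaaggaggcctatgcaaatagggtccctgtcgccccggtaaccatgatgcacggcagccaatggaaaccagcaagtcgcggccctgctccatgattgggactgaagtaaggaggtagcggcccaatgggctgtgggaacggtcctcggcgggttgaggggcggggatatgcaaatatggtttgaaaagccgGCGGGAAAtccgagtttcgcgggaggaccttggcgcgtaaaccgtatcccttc
E2F6: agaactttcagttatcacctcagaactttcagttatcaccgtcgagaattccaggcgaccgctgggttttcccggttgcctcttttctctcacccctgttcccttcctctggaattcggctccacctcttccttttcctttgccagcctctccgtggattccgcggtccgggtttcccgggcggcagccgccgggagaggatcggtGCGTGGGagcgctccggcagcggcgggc
E2F7: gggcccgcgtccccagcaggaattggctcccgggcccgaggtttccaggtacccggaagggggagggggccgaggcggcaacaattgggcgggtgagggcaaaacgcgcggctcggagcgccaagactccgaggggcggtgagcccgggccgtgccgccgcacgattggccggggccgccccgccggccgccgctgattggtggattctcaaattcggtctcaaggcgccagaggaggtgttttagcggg

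Promoters on chromosome 8, which holds E2F5, were left out of the RefSeq table before matching. The rest matched 8 of the 10 members with 11 promoters of 300 bases, each from 250 bases before to 50 after a start. E2F8 had no entry. A strict E2F site was present in 4 of the 11, those of E2F1 (2 sites), E2F2, the first E2F3 start and TFDP1. It was present in 3.31% of the 35116 promoters outside chromosome 8, which are meant by all promoters here. The looser form TTTNNCGC, which contains all strict sites, was found in the same 4 promoters and in 6.89% of all promoters. GCGTGGG was found in the E2F6 promoter alone among the 11, and in 6.98% of all promoters. TGANTCA, the AP-1 motif, and TGACGTCA, the CRE, were in 0 of the 11, against 7.71% and 1.85% of all promoters. A CHR (TTTGAA), the element read by the MuvB complex, was in the first E2F3 promoter and in 2 of the 3 TFDP2 promoters, against 15.2% of all. These matches describe letters in a window and are not evidence of binding. Gene counts do not separate the transcripts of the E2F3 starts, so a response cannot be assigned to one of them.

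Levels differed widely among the members when compared as CPM per kb of annotated exon, averaged over the 12 libraries with the SD over them. TFDP1, the main DP partner in most cells, was highest at 92.3 ± 4.87 CPM per kb (n = 12). E2F4, a pocket-bound repressor and the usual E2F of resting cells, followed at 69.8 ± 2.38 CPM per kb. E2F1 stood at 26.8 ± 1.28 and E2F2 at 23.8 ± 0.779 CPM per kb, and the ranges of these neighbours overlapped. TFDP2 stood at 19.1 ± 0.968, E2F8 at 15.8 ± 1.67 and E2F3 at 11.4 ± 1.35 CPM per kb, where E2F8 overlapped both TFDP2 and E2F3. E2F7 at 3.22 ± 0.729 and E2F6 at 2.77 ± 0.498 CPM per kb overlapped each other. E2F5 was lowest at 0.327 ± 0.0372 CPM per kb, from 44 to 70 counts per library. The order was the same when the longest transcript was used as the length. These levels rest on annotated lengths, since the transcripts in use were not measured.

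**Figure D1:**
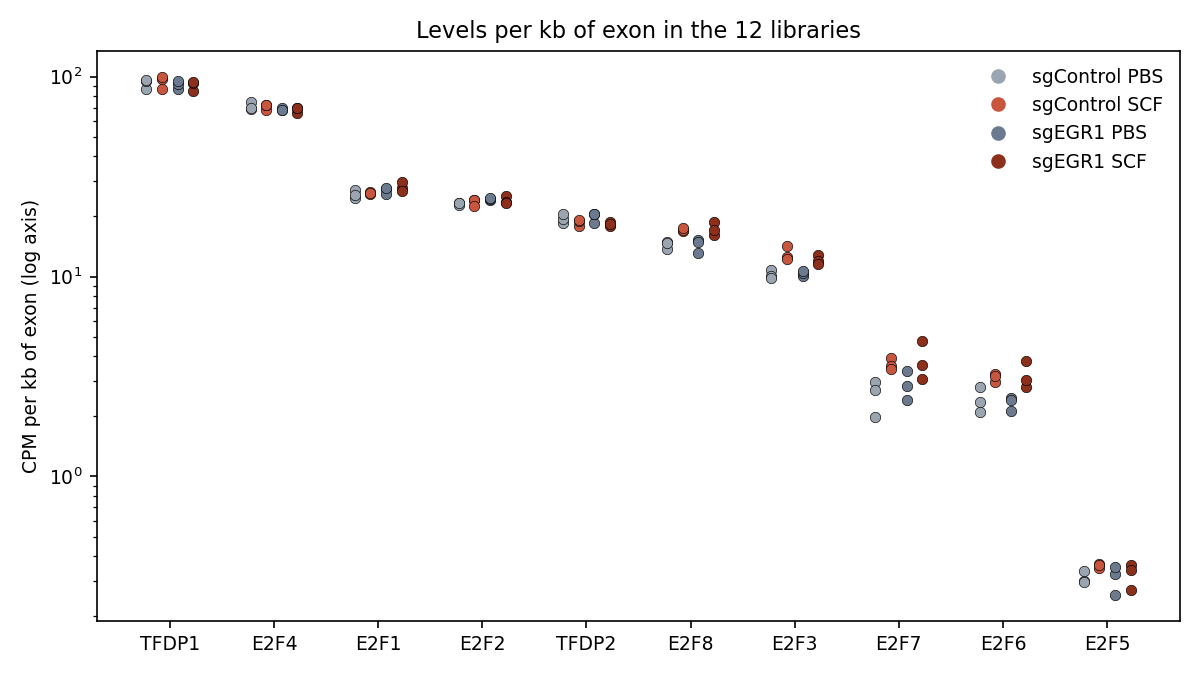
Level of each member in CPM per kb of exon on a log axis, with 1 point for each of the 12 libraries, coloured by group and ordered by mean. TFDP1 and E2F4 lie above all others in every library and E2F5 below them.

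The SCF response was then compared with PBS, to ask which members change within 1 h of Kit activation. Over both guides together E2F3, E2F6, E2F7 and E2F8 were called higher and no member was called lower. That is 4 of 10 higher and 0 of 10 lower by the edgeR quasi-likelihood test at an adjusted p under 0.05. Among all genes tested 5.58% were called higher and 3.45% lower. The median log2 change was 0.083 over the 10 members and -0.0045 over all genes. The rises were between 1.19-fold and 1.38-fold, so they were small. More cells with a transcript and more transcript per cell cannot be told apart in such bulk samples.

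**Figure D2:**
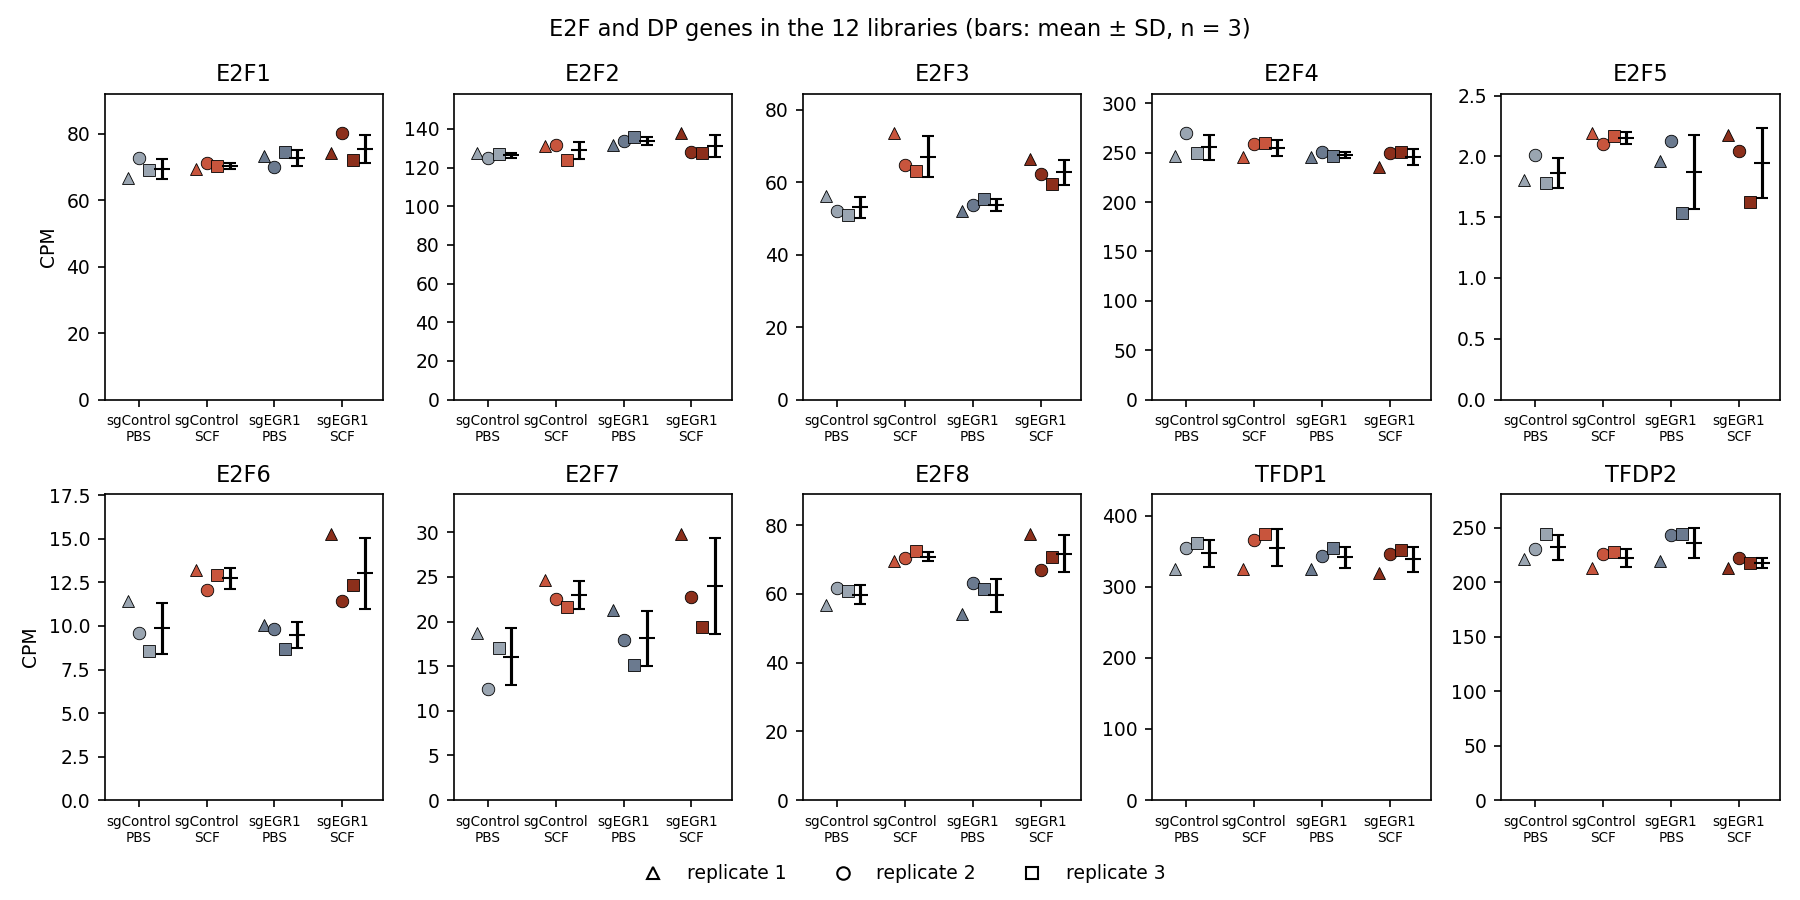
CPM of the 10 members in every library, by group, with axes from 0, symbols for the replicate number and bars for the mean ± SD (n = 3). The SCF libraries of E2F3, E2F6 and E2F8 lie above the PBS libraries of the same guide, and those of E2F1, E2F2 and E2F4 are mixed with them.

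Among the activators, E2F3 (chr6:20401879-20493714, plus strand) promotes entry into S phase and is a limiting factor for it in many cell types. E2F3 was at 56.2, 52.1 and 50.9 CPM in replicates 1, 2 and 3 of sgControl PBS and at 73.5, 64.7 and 63.2 CPM in sgControl SCF. In sgEGR1 cells it was at 52.04, 53.9 and 55.3 CPM after PBS and at 66.5, 62.4 and 59.7 CPM after SCF. Every SCF library lay above every PBS library, in both guides. In sgControl cells the change was 1.26-fold (log2 0.34, SE 0.067), with an adjusted p of 0.0179 from edgeR. E2F3 was thus the 1 member of 10 called there, where 2.12% of all genes were called higher, and 0 members were called lower against 0.775% of all genes. This call rested on single libraries, since the adjusted p was between 0.0191 and 0.0897 when each of 6 libraries was left out, and passed 0.05 without sgControl PBS replicate 2, sgControl PBS replicate 3 or sgControl SCF replicate 1. A fit of the compared groups alone gave 0.0825. In sgEGR1 cells the change was 1.17-fold (log2 0.23, SE 0.067) and not called, at an adjusted p of 0.109, or of 0.134 without the library labelled sgEGR1 SCF replicate 3. Over both guides E2F3 rose 1.22-fold (95% interval 1.13 to 1.31, edgeR adjusted p = 0.00288).

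The other activators did not pass the test. E2F1 (chr20:33675477-33686385, minus strand), which drives S phase genes and can trigger apoptosis, averaged 69.5 ± 2.996 and 70.3 ± 0.838 CPM after PBS and SCF in sgControl cells (SD, n = 3). In sgEGR1 cells E2F1 averaged 72.7 ± 2.43 and 75.5 ± 4.21 CPM. Its change over both guides was log2 0.035, with a 95% interval of -0.043 to 0.11 (edgeR adjusted p = 0.640). E2F2 (chr1:23506438-23531233, minus strand), an activator that restrains division late in erythroid maturation, ranged from 124 to 138 CPM over the 12 libraries. The change of E2F2 was log2 0.00088, with an interval of -0.064 to 0.066, and the PBS and SCF ranges overlapped in both guides. These intervals lie below the point estimate for E2F3, but the differences between members were not tested. Within a library, where no scaling enters, the ratio of E2F3 to E2F2 counts averaged 0.420 ± 0.0202 in sgControl PBS and 0.521 ± 0.0356 in sgControl SCF. In sgEGR1 cells this ratio averaged 0.402 ± 0.00644 after PBS and 0.479 ± 0.0104 after SCF, and the PBS and SCF values did not overlap in either guide.

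**Figure D3:**
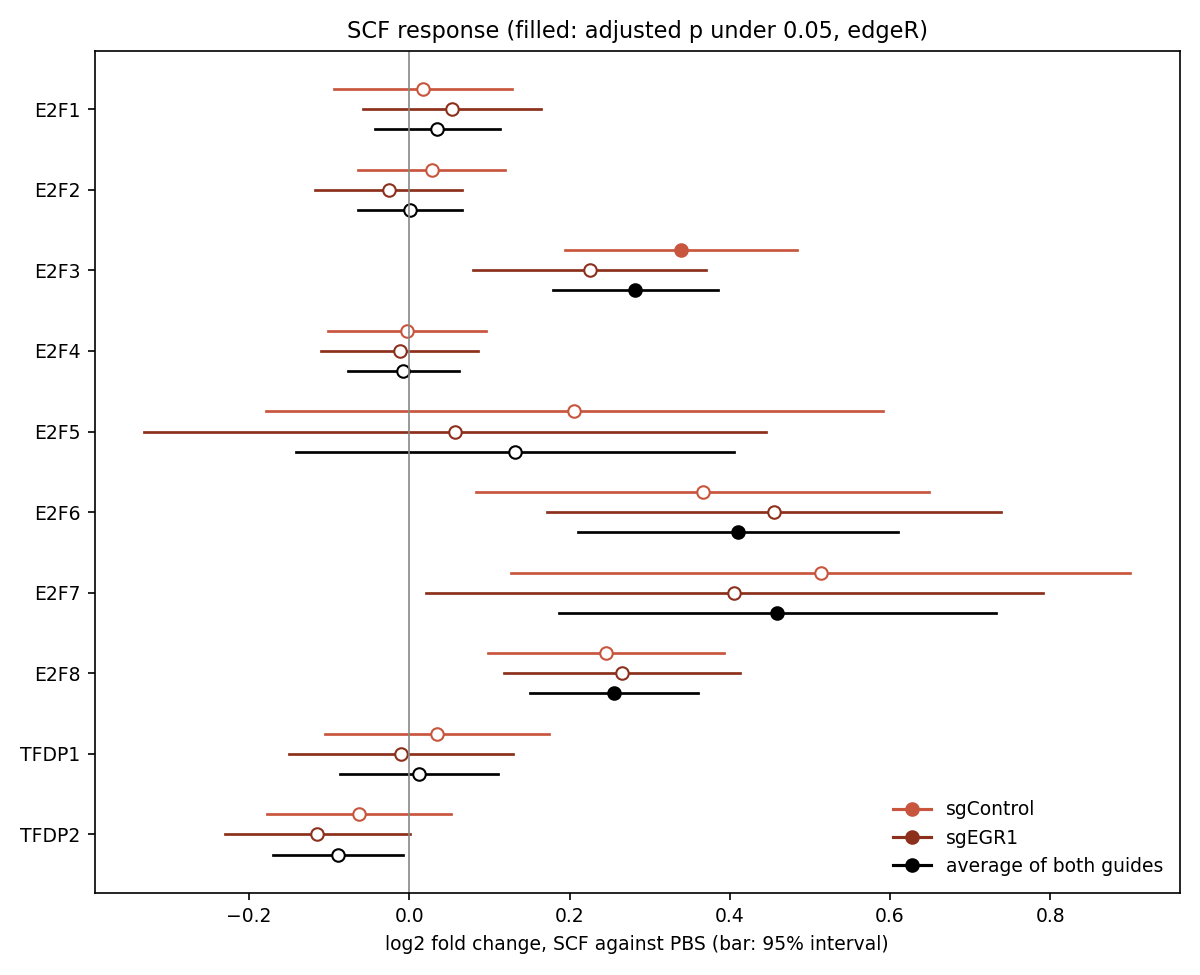
Log2 fold change of SCF against PBS with its 95% interval for each member, in sgControl cells, in sgEGR1 cells and averaged over both guides, where filled points mark an edgeR adjusted p under 0.05. E2F3, E2F6, E2F7 and E2F8 are filled in the average and E2F3 alone in sgControl cells.

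E2F4 and E2F5 lack a strong activating role and act mainly with pocket proteins to keep cell cycle genes off. E2F4 (chr16:67192155-67198918, plus strand) averaged 255 ± 12.3 and 255 ± 7.86 CPM after PBS and SCF in sgControl cells, and 248 ± 2.72 and 246 ± 8.34 CPM in sgEGR1 cells. Its change over both guides was log2 -0.0075 with an interval of -0.077 to 0.062. E2F5, on chromosome 8, shares exon bases with RBIS, which had 1230 to 2011 counts per library, so its low counts are uncertain. E2F5 was at 1.81, 2.01 and 1.78 CPM in sgControl PBS and at 2.19, 2.0999 and 2.17 CPM in sgControl SCF. These groups did not overlap, but the change was not called (edgeR adjusted p = 0.702), and in sgEGR1 cells PBS and SCF libraries were mixed.

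E2F6 (chr2:11444375-11466177, minus strand) represses without pocket proteins, as part of a Polycomb complex with MGA, MAX, PCGF6 and L3MBTL2. E2F6 was at 11.5, 9.61 and 8.57 CPM in sgControl PBS and at 13.2, 12.1 and 12.9 CPM in sgControl SCF. In sgEGR1 cells it was at 10.1, 9.80 and 8.65 CPM after PBS and at 15.3, 11.4 and 12.4 CPM after SCF. The PBS and SCF libraries did not overlap within either guide, and the highest value was in sgEGR1 SCF replicate 1. Neither guide alone gave a call, with log2 0.37 (SE 0.13, edgeR adjusted p = 0.192) in sgControl and log2 0.46 (SE 0.13, edgeR adjusted p = 0.0976) in sgEGR1 cells. Over both guides E2F6 rose 1.33-fold (95% interval 1.16 to 1.53, edgeR adjusted p = 0.0148). The E2F6 promoter was the one that holds GCGTGGG, and its values in sgEGR1 against sgControl cells are given with the guide comparisons.

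E2F7 and E2F8 are atypical members that bind DNA without a DP partner and repress E2F targets in S phase. E2F7 (chr12:77021248-77065569, minus strand) was at 18.7, 12.5 and 17.03 CPM in sgControl PBS and at 24.7, 22.5 and 21.7 CPM in sgControl SCF. In sgEGR1 cells it was at 21.3, 17.9 and 15.2 CPM after PBS and at 29.8, 22.7 and 19.4 CPM after SCF. The groups were apart in sgControl cells and overlapped in sgEGR1 cells, where PBS replicate 1 lay above the library labelled SCF replicate 3. E2F7 rose 1.38-fold over both guides, with a 95% interval of 1.14 to 1.66 and an edgeR adjusted p of 0.0393. It was the least stable call, since 9 of the 12 fits that left out 1 library gave an adjusted p between 0.0618 and 0.0947. The 3 fits that kept the call left out sgControl PBS replicate 1, sgEGR1 PBS replicate 1 or the library labelled sgEGR1 SCF replicate 3, and the lowest adjusted p was 0.0240, without the last.

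E2F8 (chr11:19224063-19241620, minus strand) was at 56.6, 61.8 and 60.97 CPM in sgControl PBS and at 69.7, 70.6 and 72.4 CPM in sgControl SCF. In sgEGR1 cells E2F8 was at 54.2, 63.2 and 61.6 CPM after PBS and at 77.5, 66.9 and 70.8 CPM after SCF. All SCF libraries lay above all PBS libraries of the same guide. E2F8 rose 1.19-fold over both guides (95% interval 1.11 to 1.28, edgeR adjusted p = 0.00575), with log2 0.25 in sgControl and log2 0.27 in sgEGR1 cells, at adjusted p of 0.0832 and 0.0648. An antisense gene that shares exon bases with E2F8, CSRP3-AS1, had 0 to 7 counts per library. In sgControl cells 5 of 10 members had all SCF libraries above all PBS libraries, namely E2F3, E2F5, E2F6, E2F7 and E2F8, against 10.4% of all genes tested. In sgEGR1 cells 3 of 10 did, namely E2F3, E2F6 and E2F8, against 11.2% of all genes, while 0 members were called in this guide against 1.81% of genes called higher and 0.788% called lower.

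The DP proteins are the dimer partners of E2F1 to E2F6. TFDP1 (chr13:113584721-113641473, plus strand) averaged 347 ± 19.6 and 355 ± 26.0 CPM after PBS and SCF in sgControl cells, and 341 ± 14.9 and 339 ± 17.7 CPM in sgEGR1 cells. Its change over both guides was log2 0.012 with an interval of -0.087 to 0.11. TFDP2 (chr3:141944428-142149544, minus strand) was at 221, 231 and 244 CPM in sgControl PBS and at 213, 226 and 227 CPM in sgControl SCF. In sgEGR1 cells it was at 220, 243 and 244 CPM after PBS and at 213, 222 and 218 CPM after SCF. The TFDP2 groups overlapped in both guides, and its change over both guides was log2 -0.089 (SE 0.037, edgeR adjusted p = 0.177), which was not called. The near copy TFDP1P3 had 36 to 79 counts per library, few beside the 7637 to 11911 counts of TFDP1.

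Since replicate 1 stood apart, the members were compared between replicate 1 and replicates 2 and 3 across the 4 groups. This split and the term for replicate 1 were chosen with that known from these same data. The p values of the split are therefore not an independent test. E2F6 and E2F7 were higher in replicate 1, by log2 0.23 (edgeR adjusted p = 0.0260) and log2 0.34 (edgeR adjusted p = 0.00719). TFDP1 and TFDP2 were lower, by log2 -0.14 (edgeR adjusted p = 0.000606) and log2 -0.097 (edgeR adjusted p = 0.0117). That is 2 of 10 members in each direction, beside 13.1% of all genes higher and 13.4% lower. The call was lost for E2F6 in 4 of 12 fits that left out 1 library (without replicate 1 or 3 of sgControl PBS or replicate 1 or 2 of sgEGR1 SCF, adjusted p up to 0.134), for E2F7 without sgEGR1 SCF replicate 1 (0.0505) and for TFDP2 without sgEGR1 PBS replicate 1 (0.0601). TFDP1 was at 319 to 326 CPM in the replicate 1 libraries and from 344 to 374 CPM in all others. With a term for replicate 1 in the model, the same 4 members that rose in the average were called in each guide. In sgControl cells these 4 of 10 stood beside 5.28% of all genes called higher, with 0 members lower beside 3.04%. In sgEGR1 cells they stood beside 5.04% called higher, with 0 members lower beside 3.52%. In sgEGR1 cells the adjusted p in that fit was 0.0182 for E2F3, 0.00976 for E2F6, 0.0408 for E2F7 and 0.0192 for E2F8. With the library labelled sgEGR1 SCF replicate 3 left out, the same fit gave 0.0336, 0.0345, 0.0297 and 0.0444.

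In the average of both guides the fit with the replicate 1 term called 4 of 10 members higher beside 10.2% of all genes, and 1 of 10 lower beside 8.29%. The member lower was TFDP2 (log2 -0.088, edgeR adjusted p = 0.0186), whose adjusted p rose to 0.0633 once sgEGR1 SCF replicate 3, as labelled, was left out of that fit. In a fit of replicates 2 and 3 only, the average log2 changes were 0.24 for E2F3, 0.41 for E2F6, 0.47 for E2F7 and 0.18 for E2F8, with edgeR adjusted p of 0.00197, 0.00864, 0.0152 and 0.00761. TFDP2 was also called lower there (log2 -0.11, edgeR adjusted p = 0.0489), so 4 of 10 members were higher beside 6.72% of all genes and 1 of 10 lower beside 4.55%. Within replicate 1 the log2 difference between SCF and PBS was 0.39 and 0.35 for E2F3, 0.21 and 0.60 for E2F6, 0.40 and 0.48 for E2F7, and 0.30 and 0.51 for E2F8, in sgControl and sgEGR1 cells respectively. Each of these 4 members was thus higher after SCF both in replicate 1 and in the other replicates. When the library labelled sgEGR1 SCF replicate 3 was left out, the model with no such term gave average adjusted p of 0.00446 for E2F3, 0.0255 for E2F6, 0.0240 for E2F7 and 0.0150 for E2F8.

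**Figure D4:**
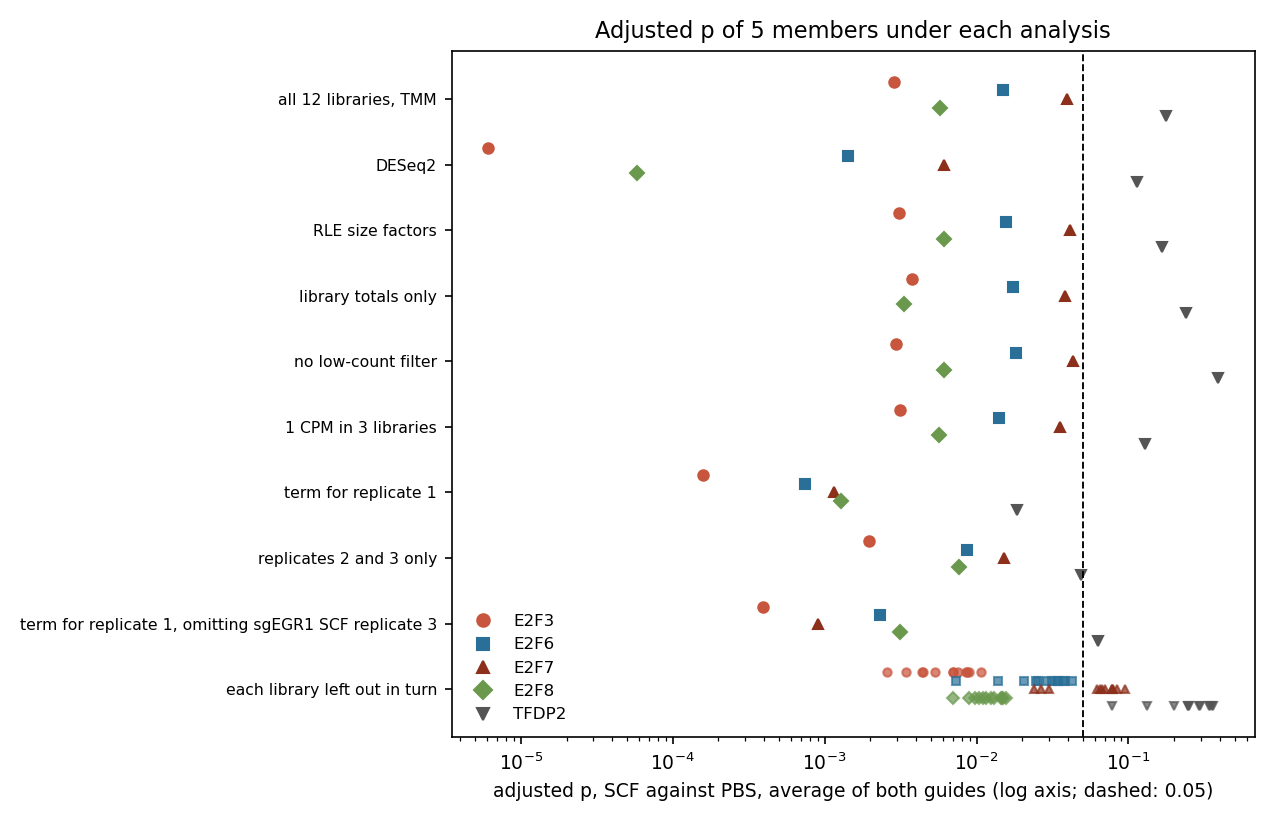
Adjusted p (log axis) of E2F3, E2F6, E2F7, E2F8 and TFDP2 for SCF against PBS averaged over both guides, in each analysis named on the axis and with each library left out in turn, where the dashed line marks 0.05. E2F3, E2F6 and E2F8 stay below the line throughout, E2F7 crosses it when single libraries are left out, and TFDP2 falls below it with the term for replicate 1 and with replicates 2 and 3 only.

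The guides were compared to ask whether interference near EGR1 changes the members. After PBS 0 of 10 members were called, as were 0% of all genes, with 715 genes at an unadjusted p under 0.05. After SCF 0 of 10 members and 0% of all genes were called, with 361 genes at an unadjusted p under 0.05. EGR1, the targeted gene, was thus itself not called in either comparison. It averaged 8.10 CPM in sgControl PBS and 1.38 CPM in sgEGR1 PBS. These tests can therefore miss a large difference, and the lack of calls does not show that the members were unchanged. DESeq2 called 20 and 5 genes in these comparisons and 0 members in either. With the library labelled sgEGR1 SCF replicate 3 left out, edgeR called 1 gene after PBS and 2 after SCF, and with a replicate 1 term as well it called 51 (0.322% of genes) and 38 (0.24%), with 0 members in each. E2F6 differed by log2 -0.058 after PBS (95% interval -0.34 to 0.23) and by log2 0.031 after SCF (interval -0.25 to 0.31). E2F3 differed by log2 0.019 after PBS (interval -0.13 to 0.16) and by log2 -0.095 after SCF (interval -0.24 to 0.049). Without the doubted library the differences after SCF were log2 -0.062 for E2F3 (interval -0.22 to 0.099), 0.064 for E2F6 (interval -0.26 to 0.39), 0.19 for E2F7 (interval -0.20 to 0.58) and 0.023 for E2F8 (interval -0.15 to 0.20). E2F1 differed after SCF by log2 0.10 (interval -0.0087 to 0.21), or by log2 0.13 without that library (interval 0.0085 to 0.25), and was not called in either fit. These intervals do not show that the guides act alike on the members.

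The interaction term (how far the response to SCF in sgEGR1 cells exceeds that of sgControl cells) was called for 0 of 10 members and 0% of all genes, with 306 genes at an unadjusted p under 0.05 and 4 calls by DESeq2, none of them a member. For E2F3 it was log2 -0.11 (interval -0.32 to 0.091), for E2F6 0.089 (interval -0.31 to 0.49), for E2F7 -0.11 (interval -0.65 to 0.44) and for E2F8 0.020 (interval -0.19 to 0.23). Once the doubted library was omitted, the term was log2 -0.077 for E2F3 (interval -0.29 to 0.14), 0.13 for E2F6 (interval -0.31 to 0.56), 0.027 for E2F7 (interval -0.51 to 0.56) and 0.030 for E2F8 (interval -0.21 to 0.27), with 2 genes called and 0 members. E2F3 was called in sgControl but not in sgEGR1 cells, and the test of that difference, the interaction, did not pass (unadjusted p 0.250, edgeR adjusted p = 0.9999).

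Genes that act with the E2Fs were described from lists chosen with earlier results of these data known, for SCF against PBS averaged over both guides. Shares in brackets beside the counts are those of all genes called in the same direction. Without the doubted library, which left 4.59% of genes higher and 2.35% lower, the list counts were as given here except that of the E2F6 complex. Of 10 pocket protein and MuvB complex genes 1 fell (3.45% of all genes) and 0 rose (5.58%), with a median log2 change of -0.058. It was LIN54, the DNA-binding subunit of MuvB (log2 -0.27, SE 0.062, edgeR adjusted p = 0.0174). RB1 was at log2 -0.084 (edgeR adjusted p = 0.286), RBL1 at -0.033 and RBL2 at -0.12 (edgeR adjusted p = 0.106). With the replicate 1 term 4 of these 10 fell, namely LIN54, LIN37, RBL2 and RB1, beside 8.29% of all genes. Of 9 tested genes of the E2F6 complex 2 rose (5.58% of all genes) and 0 fell (3.45%), with a median of 0.031. RYBP, a Polycomb subunit, rose by log2 0.39 (SE 0.031, edgeR adjusted p = 1.54e-05), and MAX, the partner of MGA and MYC, by log2 0.16 (SE 0.045, edgeR adjusted p = 0.0497), a call that was lost without the doubted library. RING1, the tenth gene of that list, was listed at 0 in every library and was not tested.

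Among 28 well-known E2F target genes 5 rose (5.58% of all genes) and 1 fell (3.45%), with a median of 0.057. CDC25A, the phosphatase that activates CDK2, rose by log2 0.88 (SE 0.047, edgeR adjusted p = 1.15e-06) and CCNE2, a cyclin for CDK2, by log2 0.53 (SE 0.10, edgeR adjusted p = 0.00608). CDC6, which loads the replicative helicase, rose by log2 0.39 (SE 0.035, edgeR adjusted p = 3.28e-05) and RRM2, a subunit of ribonucleotide reductase, by log2 0.26 (SE 0.052, edgeR adjusted p = 0.00789). PCNA at log2 0.14 was the other gene that rose, and CDT1, a helicase loader like CDC6, was the one that fell, at log2 -0.24, both named after their values were seen. The helicase genes MCM2 to MCM7, TYMS, TK1, POLA1 and CCNA2 were among the 22 not called. With the replicate 1 term 12 of the 28 rose and 2 fell, beside 10.2% and 8.29% of all genes. MCM3 and MCM6 were among those 12, at edgeR adjusted p of 0.0210 and 0.00790.

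Of 11 tested regulators of the G1 phase 3 rose (5.58% of all genes) and 1 fell (3.45%), with a median of 0.10. CCND1, the cyclin D1 gene, rose by log2 0.79 (SE 0.086, edgeR adjusted p = 0.000142), CDKN2D, an inhibitor of CDK4 and CDK6, by log2 0.27 (SE 0.073, edgeR adjusted p = 0.0345), and CDK4 by log2 0.13 (SE 0.034, edgeR adjusted p = 0.0261). CDKN1B, which encodes the CDK inhibitor p27, fell by 0.69 on the log2 scale (SE 0.046, edgeR adjusted p = 4.50e-06). Of 12 genes for G2 and mitosis 0 rose (5.58% of all genes) and 2 fell (3.45%), with a median of -0.067, and with the replicate 1 term 5 fell, beside 8.29% of all genes. CENPE, a kinetochore motor, had a log2 change of -0.18 (edgeR adjusted p = 0.0176) and CENPF, a kinetochore protein, one of -0.16 (edgeR adjusted p = 0.0179). The summed CPM of that list ran from 4853 to 5323 in sgControl PBS, 4841 to 4988 in sgControl SCF, 5272 to 5359 in sgEGR1 PBS and 4831 to 4954 in sgEGR1 SCF. Cell cycle phase was not measured, and its part in the changes of the members was not tested.

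**Figure D5:**
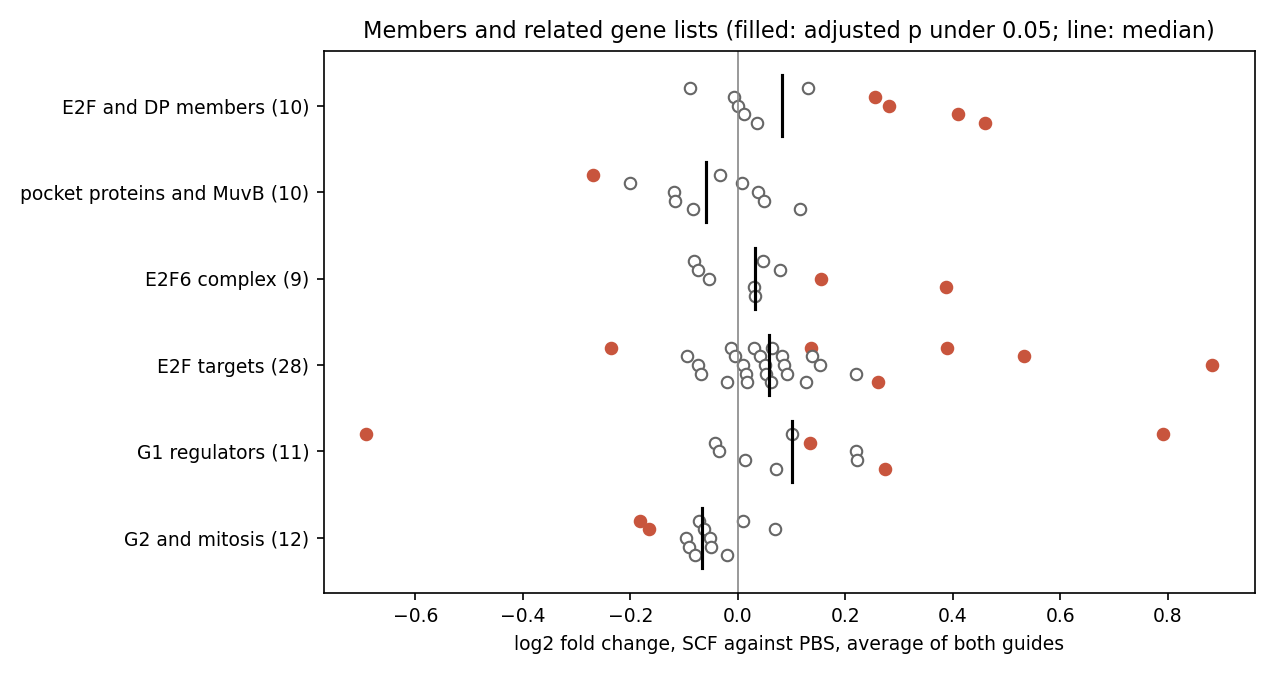
Log2 change of SCF against PBS, averaged over both guides, for each member and each tested gene of 5 related lists, with the number of genes in brackets, filled points for an edgeR adjusted p under 0.05 and a line at the median. The medians lie at 0.083 for the members, 0.057 for the E2F targets and -0.067 for the G2 and mitosis genes.

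The members that rose were then compared with each other over the libraries. They were picked as higher after SCF in these same libraries, so a positive correlation among them follows in part from that choice. Over the 12 libraries Pearson's r of log2 CPM was 0.85 between E2F3 and E2F6, 0.82 between E2F6 and E2F7 and 0.78 between E2F3 and E2F8. It was 0.76 between E2F3 and E2F7, 0.75 between E2F6 and E2F8 and 0.57 between E2F7 and E2F8. The libraries share the treatment, the replicate number and their depth, and these values are a description only. Among 9861 other genes whose mean was 5 CPM or more, the 3 most like E2F3 were SCAF4 (r = 0.96), UBXN2A (r = 0.96) and TXLNA (r = 0.96). For E2F6 they were SLC25A44 (r = 0.97), GMFB (r = 0.97) and PIK3CB (r = 0.96). BBX, ZFP91 and CPEB4 were most like E2F7 (r = 0.95 for each), and SSX2IP (r = 0.96), PHTF2 (r = 0.95) and DDIAS (r = 0.94) most like E2F8.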

How the data were processed

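Expression was taken from estimated counts per gene that the authors deposited, made with StringTie from paired-end reads aligned to hg38, without scaling for depth or length. Per the labels HISAT2, SAMtools and bcl2fastq were used, and versions are not repeated here. The annotation release is not given in the sources used here, the sources name different library kits, and use of strand in counting is not stated. All values were whole, so rounding changed none, and 0 further columns were present. The study describes the 3 libraries per group as biological replicates.

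All 12 libraries entered 1 model with 1 coefficient per group in edgeR 4.0.16 (R 4.3.3), with the filterByExpr filter, TMM scaling, the quasi-likelihood test and Benjamini-Hochberg adjustment over 15492 genes, called at an adjusted p under 0.05. The DESeq2 1.42.0 test, other scalings and filters, a replicate block, a term for replicate 1, replicates 2 and 3 only, the compared groups only and each library left out were alternatives. The code was tested on simulated data. Totals of 23.5 to 32.04 megacounts gave 44 to 11911 counts per library for a member. Intervals are 95% confidence intervals of the estimated change, based on the spread between these libraries, and do not give the range of single libraries. They are not adjusted for the number of genes tested.

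Column codes name a guide in place of sgEGR1, and the code was assigned to it as the one construct besides the control. Residuals of same-numbered libraries correlated between the guides at 0.111 or more in each of the 6 pairs, which met the rule that each exceeds 0.1. Replicate 1 stood apart in all 4 groups, which by itself can raise such correlations, and differently numbered libraries were not compared. The rule therefore cannot show that the numbers pair the libraries, and the labels give the numbers alone.

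Positions and exon lengths are from GENCODE release 44 on GRCh38, the build of the deposited files. One marker planned for the erythroid list is not reported here and was left out of its sum. The members and lists were chosen with earlier results of these data known. All 10 members and EGR1 were to be named, with up to 4 called genes of largest absolute log2 change per list, or up to 2 of smallest p where none was called, and the 3 genes most like each member called after SCF.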

Additional observations from a re-analysis of the deposited data

How the results depend on the processing

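The count of members called after SCF depended on the analysis within each guide and less in the average. In sgControl cells the count was 1 in the report, and became 2 with DESeq2, 4 with a term for replicate 1 (also 4 when this fit left out the library labelled sgEGR1 SCF replicate 3), 2 with replicates 2 and 3 only, 0 with the compared groups only and 0 to 1 with each library left out. In sgEGR1 cells the count was 0, and became 2 with DESeq2, 1 with library totals as the scaling and 4 with the replicate 1 term, with or without that library. In the average it was 4, and became 5, with TFDP2 lower, under the replicate block, with the replicate 1 term and with replicates 2 and 3 only, and 3 to 4 with each library left out. Of 123 counts under an alternative, 109 stayed within 1.5 times. Of 770 member values under an alternative, with fits that left out a library entered by their lowest and highest change, 0 reversed, 731 kept their direction and side of the threshold or were uncalled in both, 8 lost the call and 31 gained it, and 56 uncalled values changed sign. The causes were not tested. With the replicate number as a block, 4 members were called in sgControl and 3 in sgEGR1 cells after SCF, against 1 and 0, while 7.64% and 7.97% of all genes were called in either direction. For SCF against PBS same-numbered libraries correlated at 0.293, 0.0151 and 0.117 in sgControl and 0.252, 0.0817 and 0.0696 in sgEGR1 cells, so there the rule for pairing was not met. Between the guides, where the rule was met, the block left the count at 0 members after PBS and after SCF and for the interaction. E2F5, with 44 to 70 counts per library, had an SE of 0.13 in the average.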
